A study of Homo sapiens with 18 samples.

Results

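The genes described here encode the machinery of macroautophagy, and they were followed through the response of 3 human myeloid cell lines to a phorbol ester. The list holds 36 genes. They were found through the platform's probe annotation, older symbols included, and 33 of them had the 3 probe sets needed for a gene value, out of 16267 genes in all. HL60 is an acute promyelocytic leukaemia line, THP-1 an acute monocytic leukaemia line and U937 a histiocytic lymphoma line with monocytic features. In each line, 3 samples were labelled as receiving 30 nM phorbol 12-myristate 13-acetate (PMA) and 3 as receiving the vehicle DMSO, both for 3 days, which gave 6 groups and 18 arrays. All cells grew in RPMI1640 with FCS, and total RNA was labelled for Affymetrix human exon 1.0 ST arrays, which measure each gene through many short probe sets placed along its exons. The series asked how PMA alters exon usage in these lines. The lines are established tumour cells kept in culture, so each stands for itself as a model.

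PMA activates protein kinase C and drives such cells out of the cell cycle towards a macrophage-like state. Macroautophagy encloses cytoplasm in a double-membrane autophagosome and delivers it to lysosomes. A kinase complex around ULK1 starts the process, a class III phosphatidylinositol kinase complex around BECN1 marks the membrane with a phosphoinositide, WIPI proteins read that mark, and lipid is supplied by ATG2 and ATG9 proteins. An enzyme cascade similar to ubiquitin conjugation then attaches ATG8 proteins, the LC3 and GABARAP families, to the growing membrane, where cargo receptors such as SQSTM1 bind them. Macrophages use the same machinery on damaged organelles, protein aggregates and ingested microbes. Array levels report RNA, and no autophagic flux was measured.

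Of the response markers, SPP1 and CDKN1A were higher, and MYB, MKI67 and TOP2A lower, with PMA in all 3 lines. The marker lists were chosen with earlier results of these data known, so this is no independent check of the labels. Of 8 myeloid markers, 7 lay above a log2 level of 5.17 (the 30th percentile of all probe sets) in every group. The T-cell markers CD3E, CD3D and CD2 lay below it in every group, while CD8A and NKG7 lay above it in every group. GNLY exceeded it in THP-1 PMA (6.41) and U937 PMA (5.53) only. CD79A, a B-cell marker, and COL1A1, COL1A2 and PDGFRB of the epithelial and fibroblast markers lay above it in every group. HBB, EPCAM and CDH1 lay below it in every group, and ALAS2 exceeded it in U937 PMA (5.21) only. With PMA, FCER1G and TYROBP rose in all 3 lines, and LYZ, MPO and CSF3R fell in HL60 and THP-1. CEBPA fell in THP-1, NKG7 fell in HL60 and THP-1, CD79A rose in HL60 and GNLY rose in THP-1. Array medians ran between 6.43 and 6.95 log2 units, apart from the second U937 PMA array, at 6.18. That array held 83228 distinct values, against 214471 to 220516 on the other arrays, and both U937 arrays numbered 2 shared at most 5 tied values with any array, where arrays of a line otherwise shared 39 to 116. Called U937 changes of members are therefore given with and without that pair, and its loss also moved calls in the other lines, since all arrays share 1 estimate of the spread. The lines shared at most 7 tied values, so levels are compared within a line and only listed across lines. The labels do not say that replicates came from separate cultures, so p-values measure the spread between these samples, which may be technical.

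Promoter sequences are printed for WIPI1, GABARAPL1 and SQSTM1, the 3 members higher in all lines, because members that move together can be compared at their start sites. Each is the 250 bases before a RefSeq start on GRCh38.p14, written in the direction of transcription, and 32 of the 36 members had entries. Capitals mark matches, on either strand, to 7 motifs: TCACGTGA, an E-box flanked as in the element bound by TFEB; CACGTG, the plain E-box inside it; TGANTCA, bound by AP-1; TGACNNNGC, the antioxidant response element; GCGNGGGCG, bound by EGR factors; TGACGTCA, the cAMP response element; and GGGCGGG, the GC box. The last 2 motifs were added after the sequences had been read. The WIPI1 window lies at chr17:68457497-68457746 on the minus strand, that of GABARAPL1 at chr12:10212627-10212876 on the plus strand, and those printed for SQSTM1 at chr5:179806143-179806392 and chr5:179820655-179820904 on the plus strand. The window of SQSTM1 start 2, at chr5:179806759-179807008, held 1 GC box and is not printed, since it lies close to start 1. UVRAG, the member lower in all lines, had no entry.
WIPI1: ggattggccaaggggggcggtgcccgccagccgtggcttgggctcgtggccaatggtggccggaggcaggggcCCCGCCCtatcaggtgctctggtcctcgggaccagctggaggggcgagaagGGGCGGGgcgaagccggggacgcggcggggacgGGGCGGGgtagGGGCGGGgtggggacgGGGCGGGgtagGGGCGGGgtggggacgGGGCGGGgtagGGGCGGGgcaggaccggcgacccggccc
GABARAPL1: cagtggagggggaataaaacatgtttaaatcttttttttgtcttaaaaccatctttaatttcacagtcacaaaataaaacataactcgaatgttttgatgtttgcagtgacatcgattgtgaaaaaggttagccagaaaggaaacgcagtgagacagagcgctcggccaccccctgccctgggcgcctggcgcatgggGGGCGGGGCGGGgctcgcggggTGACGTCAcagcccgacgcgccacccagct
SQSTM1, start 1: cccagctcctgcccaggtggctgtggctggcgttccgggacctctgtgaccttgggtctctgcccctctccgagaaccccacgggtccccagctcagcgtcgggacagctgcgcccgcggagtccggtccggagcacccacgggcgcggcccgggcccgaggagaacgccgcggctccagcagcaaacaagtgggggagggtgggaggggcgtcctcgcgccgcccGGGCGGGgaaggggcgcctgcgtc
SQSTM1, start 3: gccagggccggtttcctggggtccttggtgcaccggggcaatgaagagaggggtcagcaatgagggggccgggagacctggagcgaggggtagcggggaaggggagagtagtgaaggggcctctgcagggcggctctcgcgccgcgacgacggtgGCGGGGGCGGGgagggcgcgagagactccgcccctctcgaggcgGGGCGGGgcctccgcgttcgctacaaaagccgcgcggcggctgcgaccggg
The WIPI1 window held 8 GC boxes between 177 and 22 bases before the start, 1 of them read on the opposite strand. The GABARAPL1 window held 1 cAMP response element, 30 to 23 bases before the start, beside 2 overlapping GC boxes. At start 3 of SQSTM1 the EGR motif, 95 to 87 bases before the start, overlapped a GC box. Among 35116 windows of the same length, 31.5% held a GC box, 8.41% the EGR motif, 1.65% the cAMP response element, 10.9% the antioxidant response element, 6.57% the AP-1 motif, 6.34% the plain E-box and 0.854% the flanked E-box. The 40 member windows held the GC box in 21, the EGR motif in those of PIK3C3, SQSTM1 and WIPI2, the plain E-box in those of ATG14 and ATG3, the antioxidant response element in that of MAP1LC3B, and neither the flanked E-box nor the AP-1 motif in any.

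After PMA, WIPI1, GABARAPL1 and SQSTM1 rose in all 3 lines and UVRAG fell in all 3, while 20 of the 33 members passed the test in no line. With the replicate number as a block 12 members passed it in none, and without both U937 arrays numbered 2 it was 17. More of all genes were called with the block (34.3%, 34.7% and 33.2% in HL60, THP-1 and U937, against 23.0%, 22.5% and 22.0% without it). Without both U937 arrays numbered 2 those shares were 30.4%, 30.6% and 18.3%. The share of all genes called in no line was not computed. In HL60, 8 members rose and 1 fell (limma, Benjamini-Hochberg adjusted p under 0.05 over all genes). That is 27.3% of the members, beside 23.0% of all genes called there, of which 12.3% rose and 10.7% fell. In THP-1, 5 members rose and 2 fell, 21.2% beside a background of 22.5% (9.37% higher, 13.2% lower). In U937, 6 rose and 3 fell, 27.3% beside 22.0% (5.50% higher, 16.5% lower). With both directions together, the share of members called in this fit was thus near that of all genes in each line. After quantile normalization it was 39.4%, 45.5% and 39.4% in HL60, THP-1 and U937, beside 30.7%, 32.2% and 27.4% of all genes. More members rose than fell in each line, while in THP-1 and U937 more of all genes fell than rose. The list was not tested as a set, and the results concern single members and not the list. In these bulk samples, fewer cells of a type and less RNA per cell cannot be told apart.

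The median member change was 0.22 log2 units in HL60, 0.03 in THP-1 and 0.09 in U937, beside 0.13, 0.04 and -0.07 over all genes. In U937, 75.0% of all called genes were lower as deposited, against 51.7% after quantile normalization and 49.6% with arrays centred on their medians, which moved the median of all genes there to 0.12 and 0.17. In THP-1 those shares were 58.5%, 49.9% and 48.3%, and in HL60 46.4%, 48.2% and 50.1%. No member called as deposited changed direction under either scaling. The 3 PMA arrays lay wholly above the 3 DMSO arrays for 12 members in HL60 (all genes, 29.7%), 9 in THP-1 (23.2%) and 5 in U937 (5.86%), and wholly below them for 3 (16.4%), 3 (19.8%) and 4 (19.5%).

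**Figure D1:**
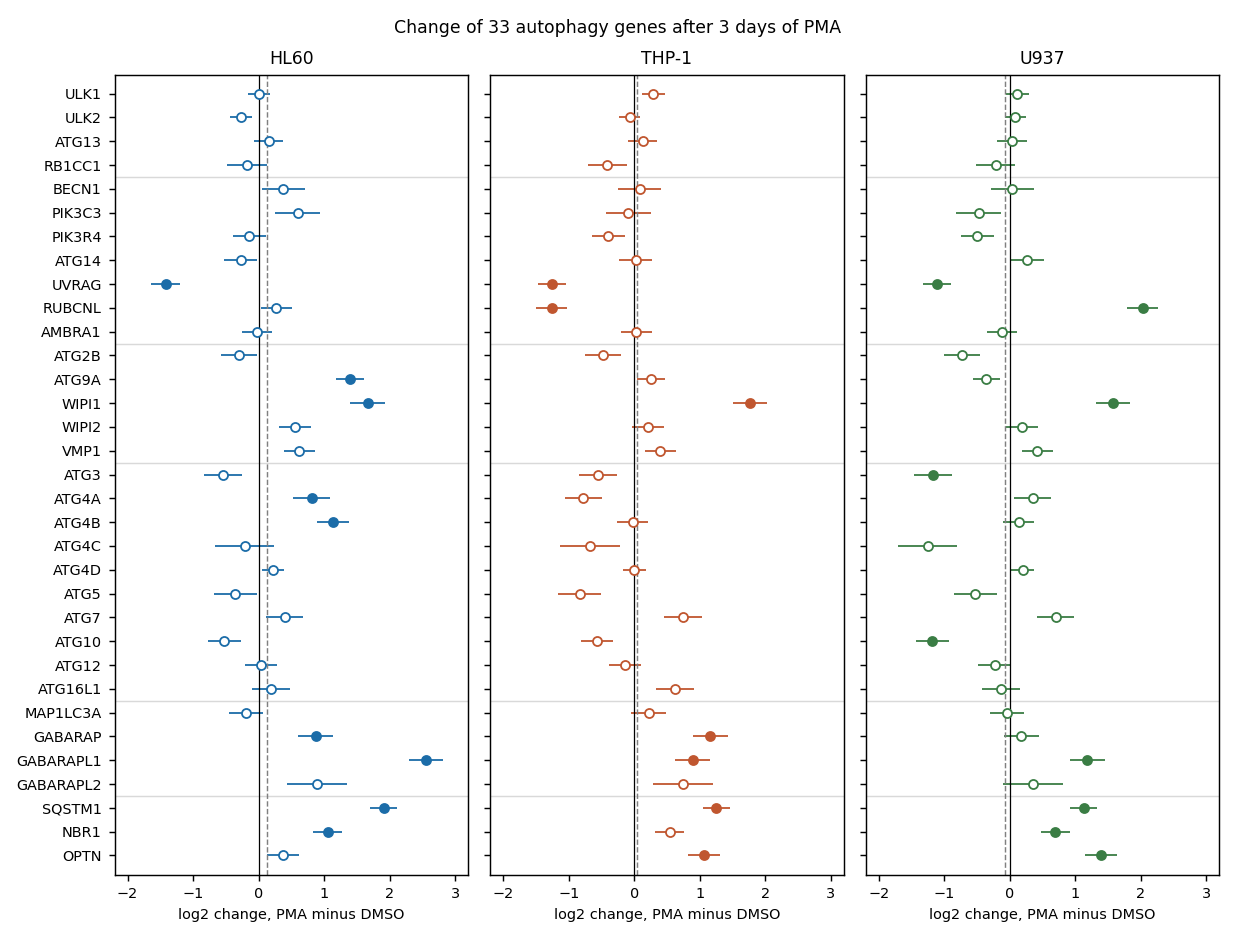
Change of each of the 33 tested members in the 3 lines, in log2 units, PMA minus DMSO, with bars of 1 standard error from the limma fit. Filled points passed the test at adjusted p under 0.05, grey rules separate the role groups, and the dashed line is the median change of all genes; WIPI1, GABARAPL1 and SQSTM1 are filled to the right in every panel and UVRAG to the left.

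None of the 4 members of the initiation complex passed the test in any line. These were ULK1 and ULK2, the kinases that start autophagosome formation, and their partners ATG13 and RB1CC1, which hold the complex together. Their changes ran between -0.27 and 0.15 log2 units in HL60, -0.41 and 0.29 in THP-1, and -0.22 and 0.12 in U937.

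Among the 7 members of the phosphatidylinositol kinase complex and its regulators, UVRAG fell in every line and RUBCNL moved in opposite directions in THP-1 and U937. The catalytic subunit PIK3C3, its partner PIK3R4, the scaffold BECN1, the autophagosome-directing subunit ATG14 and the regulator AMBRA1 passed the test in none.

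UVRAG binds BECN1 and serves the endosomal form of the complex and autophagosome maturation. Its levels were 7.18, 7.11 and 7.17 on the HL60 PMA arrays, against 8.85, 8.52 and 8.36 with DMSO. The THP-1 PMA arrays had 7.08, 7.33 and 7.40, against 8.51, 8.72 and 8.35 with DMSO, and the U937 PMA arrays 7.16, 6.58 and 7.56, against 8.40, 8.17 and 8.05. No PMA array of any line reached a DMSO array of that line. The change was -1.42 ± 0.22 (SE, n = 3 arrays a group) log2 units in HL60 (2.68-fold lower, limma adjusted p = 7e-05), -1.26 ± 0.22 in THP-1 (2.39-fold lower, adjusted p = 0.000308) and -1.11 ± 0.22 in U937 (2.16-fold lower, adjusted p = 0.00101). Without both U937 arrays numbered 2 the U937 change was -0.87 (adjusted p = 0.00805). All 19 UVRAG probe sets were lower with PMA in each line. Of all genes, 5.93% were called lower in all 3 lines, and UVRAG was the 1 member among them.

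RUBCNL, known as Pacer, binds UVRAG and promotes autophagosome maturation. In THP-1 its levels were 8.04, 8.48 and 8.67 with PMA, against 9.65, 9.84 and 9.48 with DMSO. In U937 they were 6.08, 5.14 and 6.05 with PMA, against 3.71, 3.72 and 3.74 with DMSO. The groups did not overlap in either line, and the THP-1 arrays lay lower and the U937 arrays higher with PMA. HL60 showed 4.22, 4.13 and 4.64 with PMA and 4.25, 3.86 and 4.07 with DMSO, overlapping groups below the 30th percentile of probe sets. RUBCNL fell by 1.26 ± 0.24 log2 units in THP-1 (SE, limma adjusted p = 0.000761) and rose by 2.03 ± 0.24 in U937 (adjusted p = 8.15e-06), while the HL60 change was 0.27 ± 0.24 (adjusted p = 0.479). The U937 DMSO levels lay below the 30th percentile too, so the size of that rise is poorly fixed. Without the U937 arrays numbered 2 it was 2.34 (adjusted p = 1.12e-05). Every one of its 27 probe sets was lower with PMA in THP-1 and every one was higher in U937. The THP-1 effect minus the U937 effect was -3.29 ± 0.34 log2 units (adjusted p = 1.38e-05; -3.60 without those arrays, 9.03e-06), the only called difference of the 33 members in that comparison, where 4.76% of all genes were called (3.14% positive, 1.62% negative).

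**Figure D2:**
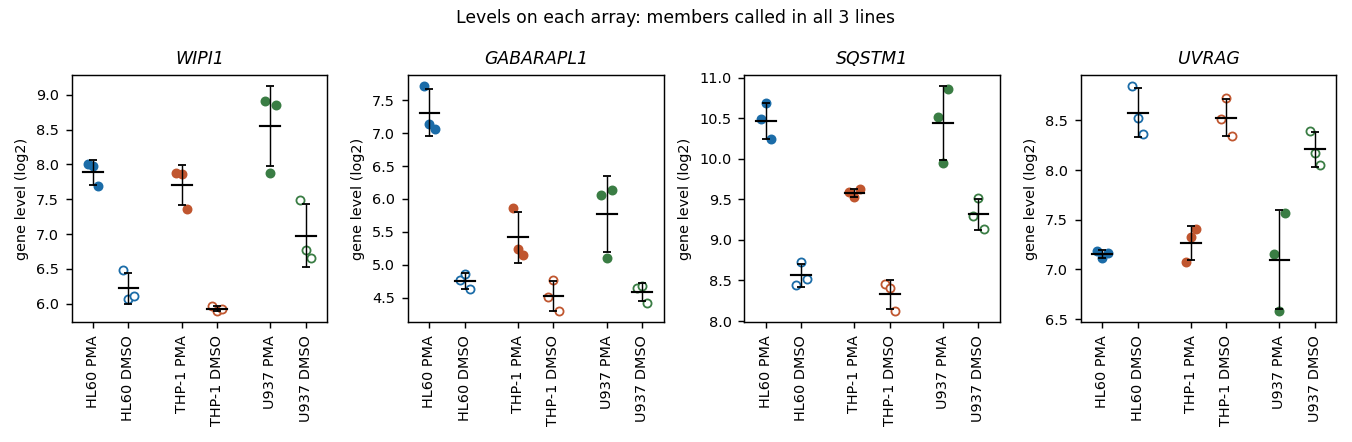
Gene levels (log2) of WIPI1, GABARAPL1, SQSTM1 and UVRAG on each array, with PMA (filled) left of DMSO (open) in each line, and black bars for the mean and SD of 3 arrays. In each line the 3 PMA arrays sit above the DMSO arrays for the first 3 genes and below them for UVRAG, and the low U937 PMA point is the second array.

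Of the 5 tested members that supply or read the membrane, WIPI1 rose in all 3 lines and ATG9A in HL60. WIPI1 binds the phosphoinositide made by the kinase complex and marks sites of autophagosome formation. Its HL60 levels were 8.0, 7.97 and 7.68 with PMA, against 6.48, 6.07 and 6.12 with DMSO. In THP-1 they were 7.87, 7.86 and 7.37 with PMA, against 5.97, 5.90 and 5.92 with DMSO. In U937 they were 8.92, 7.88 and 8.85 with PMA, against 7.49, 6.78 and 6.65 with DMSO. Each PMA array stood above every DMSO array of its line. The rises were 1.67 ± 0.26 in HL60 (SE, 3.17-fold, limma adjusted p = 0.000113), 1.77 ± 0.26 in THP-1 (3.41-fold, adjusted p = 8.57e-05) and 1.58 ± 0.26 in U937 (2.98-fold, adjusted p = 0.000293). Without the U937 arrays numbered 2 the U937 rise was 1.81 (adjusted p = 0.00024). The differences of its effects between lines, -0.10, 0.09 and 0.19 log2 units, were smaller than their standard error of 0.37. All 17 WIPI1 probe sets were higher with PMA in each line.

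ATG9A, the transmembrane lipid scramblase of the pathway, had levels of 8.32, 8.41 and 8.41 in HL60 with PMA, against 6.84, 7.0 and 7.10 with DMSO. It rose by 1.40 ± 0.21 log2 units there (SE, 2.64-fold, limma adjusted p = 6.84e-05), and all 23 probe sets were higher. THP-1 had 8.12, 8.07 and 8.36 with PMA and 7.97, 8.08 and 7.73 with DMSO, and U937 had 7.93, 7.30 and 8.33 with PMA and 8.41, 8.04 and 8.19 with DMSO. In both of these lines the groups overlapped and the test was not passed. The lipid transfer protein ATG2B, the second phosphoinositide reader WIPI2 and the endoplasmic reticulum protein VMP1 passed it in no line, with VMP1 at 0.62 in HL60 (adjusted p = 0.0662), 0.40 in THP-1 and 0.42 in U937. Quantile normalization and centring each brought VMP1 past the test in all 3 lines. Without the U937 arrays numbered 2, VMP1 passed it in HL60 (adjusted p = 0.00635) and U937 (0.77, 0.0104), and WIPI2 in HL60 (0.56, 0.00915) and U937 (0.56, 0.041, against 0.18 with all arrays).

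Of the 10 tested conjugation genes, ATG4A and ATG4B rose in HL60, ATG3 and ATG10 fell in U937, and none passed the test in THP-1. The ATG4 proteases trim ATG8 proteins before conjugation and release them from membranes afterwards. ATG4B levels in HL60 were 9.45, 9.09 and 8.93 with PMA, against 8.16, 8.10 and 7.78 with DMSO, groups that stood apart. The rise was 1.14 ± 0.24 log2 units (SE, 2.20-fold, limma adjusted p = 0.00157), and all 44 probe sets were higher. THP-1 had 8.16, 8.11 and 7.99 with PMA and 8.34, 8.35 and 7.64 with DMSO, and U937 had 8.06, 7.26 and 8.08 with PMA and 7.89, 7.58 and 7.53 with DMSO, overlapping in both.

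ATG4A had 7.41, 6.88 and 6.60 in HL60 with PMA, against 6.52, 6.23 and 5.70 with DMSO. THP-1 had 5.58, 5.48 and 5.39 with PMA, against 6.24, 6.56 and 5.98 with DMSO. The PMA arrays thus lay above the DMSO arrays in HL60 and below them in THP-1, and in U937 the groups overlapped (7.62, 6.83 and 7.58 with PMA, 7.46, 6.99 and 6.54 with DMSO). The HL60 change of 0.81 ± 0.29 log2 units (SE) had a limma adjusted p of 0.0489, and the THP-1 change of -0.78 ± 0.29 one of 0.0595. The HL60 call was lost in 15 of 27 alternatives (adjusted p between 0.0512 and 0.21), among them those without HL60 DMSO 2 or 3, HL60 PMA 1 or 2, THP-1 DMSO 1 or 2, any THP-1 PMA array, U937 DMSO 2 or U937 PMA 1. With the replicate number as a block its adjusted p was 0.00563 in HL60 and 0.00747 in THP-1, and the THP-1 change passed the test in 10 of 27 alternatives.

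ATG3, the enzyme that transfers ATG8 proteins to lipid, had 8.73, 7.99 and 8.60 in U937 with PMA, against 9.77, 9.78 and 9.27 with DMSO. ATG10, its counterpart for ATG12, had 5.64, 4.85 and 5.57 there with PMA, against 6.69, 6.39 and 6.55 with DMSO. Neither gene's groups overlapped, and both were lowest on the second PMA array. ATG3 fell by 1.17 ± 0.29 log2 units in U937 (SE, limma adjusted p = 0.00602), a call that was lost without the arrays numbered 2 (-0.86, adjusted p = 0.108). ATG10 fell by 1.18 ± 0.25 (adjusted p = 0.00196), and by 1.01 without those arrays (adjusted p = 0.0179). In HL60 the ATG3 change was -0.54 and the ATG10 change -0.52, and in THP-1 they were -0.55 and -0.57, none of them called.

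Arrays with the same number deviated together, and with that number as a block in the fit the members called became 14 in HL60, 16 in THP-1 and 12 in U937, beside 34.3%, 34.7% and 33.2% of all genes. The members gained included further conjugation genes. ATG5, the acceptor of ATG12, had a THP-1 change of -0.83 ± 0.33 log2 units (SE, adjusted p = 0.083, with the block 0.00566), and the protease ATG4C a U937 change of -1.25 ± 0.45 (adjusted p = 0.0574, with the block 0.000695). ATG7, the enzyme that activates both ATG12 and ATG8 proteins, had changes of 0.74 in THP-1 (adjusted p = 0.0752, with the block 0.0234) and 0.70 in U937 (0.0984, with the block 0.0317). Without the U937 arrays numbered 2, ATG7 passed the test in both lines (0.74, adjusted p = 0.00782, in THP-1 and 1.10, 0.0039, in U937), ATG16L1 did in THP-1 (0.62, 0.039), and the ATG4C change in U937 was -1.10 (0.267). ATG3 (adjusted p = 0.0418 in HL60 and 0.0381 in THP-1) and ATG10 (0.0461 and 0.0318) passed the test with the block in the remaining lines too. GABARAPL2, an ATG8 protein, had 0.89 in HL60 (adjusted p = 0.198, with the block 0.00236) and 0.74 in THP-1 (0.292, with the block 0.00862). The others gained with the block were PIK3C3 (0.0211) and VMP1 (0.024) in HL60, ATG2B (0.0321), ATG4A, ATG4C (0.0353) and ATG16L1 (0.0492) in THP-1, and ATG2B (0.00241) in U937.

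ATG8 proteins coat the growing membrane and hold cargo receptors. Of the 4 tested, GABARAPL1 rose in all 3 lines, GABARAP in HL60 and THP-1, and GABARAPL2 and MAP1LC3A in none. GABARAPL1 had 7.72, 7.15 and 7.07 in HL60 with PMA, against 4.77, 4.86 and 4.63 with DMSO. THP-1 had 5.86, 5.24 and 5.15 with PMA, against 4.51, 4.77 and 4.30 with DMSO, and U937 had 6.05, 5.10 and 6.14 with PMA, against 4.64, 4.68 and 4.42 with DMSO. The PMA arrays lay above the DMSO arrays in each line, and the DMSO levels were below the 30th percentile of probe sets in all 3, so the folds are poorly fixed. The rise was 2.56 ± 0.26 log2 units in HL60 (SE, 5.89-fold, limma adjusted p = 8.01e-07), the highest of any member in that line, and 1.89 with dim probe sets left out. It was 0.89 ± 0.26 in THP-1 (1.85-fold, adjusted p = 0.0196) and 1.18 ± 0.26 in U937 (2.27-fold, adjusted p = 0.00292), and 1.56 in U937 without the arrays numbered 2 (adjusted p = 0.000753). The THP-1 call was lost with median-polish summaries (0.70, adjusted p = 0.107) and without THP-1 DMSO 1 (0.88, 0.0578), THP-1 DMSO 3 (0.78, 0.0691) or THP-1 PMA 1 (0.67, 0.123).

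GABARAP had 9.93, 9.95 and 9.67 in HL60 with PMA, against 9.11, 9.10 and 8.73 with DMSO. In THP-1 it had 9.89, 9.45 and 9.26 with PMA, against 8.56, 8.49 and 8.08 with DMSO, and in U937 10.38, 9.43 and 10.71 with PMA and 10.20, 10.01 and 9.78 with DMSO. Groups were apart in HL60 and THP-1, and in U937 the second PMA array fell below all DMSO arrays while the other PMA arrays exceeded them. The changes were 0.87 ± 0.27 in HL60 (SE, limma adjusted p = 0.0239), 1.16 ± 0.27 in THP-1 (adjusted p = 0.00392) and 0.18 ± 0.27 in U937 (adjusted p = 0.81; 0.55 without the arrays numbered 2, 0.148). The HL60 call was lost without HL60 DMSO 3 (0.75, adjusted p = 0.0951), HL60 PMA 1 (0.83, 0.0676) or HL60 PMA 2 (0.82, 0.0796).

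MAP1LC3B, the LC3 protein most used as an autophagosome marker, had 1 probe set of its own, since 5 more are shared with MAP1LC3B2, and it stands outside the 33. That probe set read 10.03, 9.60 and 9.84 in HL60 with PMA, against 8.54, 8.09 and 8.18 with DMSO. THP-1 read 10.57, 10.53 and 10.14 with PMA, against 8.50, 8.68 and 8.85 with DMSO, and U937 10.82, 9.65 and 10.88 with PMA, against 9.59, 9.29 and 8.90 with DMSO. The PMA readings were above the DMSO readings in each line. With genes of 1 probe set admitted, over 16941 genes, the changes were 1.56 ± 0.28 (SE) in HL60, 1.74 ± 0.28 in THP-1 and 1.19 ± 0.28 in U937 (limma adjusted p = 0.000397, 0.000184 and 0.00462). No second probe set checks these values. ATG2A and ATG16L2 had no probe set of their own in the annotation used here and are not analysed.

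Of the 3 cargo receptors, SQSTM1 rose in all 3 lines, NBR1 in HL60 and U937, and OPTN in THP-1 and U937. The NBR1 call in U937 was lost in 6 of 27 alternatives. SQSTM1 links ubiquitinated cargo to ATG8 proteins and is itself degraded by autophagy. It had 10.49, 10.68 and 10.24 in HL60 with PMA, against 8.45, 8.72 and 8.51 with DMSO. THP-1 had 9.59, 9.53 and 9.62 with PMA, against 8.46, 8.41 and 8.12 with DMSO, and U937 had 10.52, 9.95 and 10.86 with PMA, against 9.29, 9.52 and 9.14 with DMSO. The groups were apart in every line. SQSTM1 rose by 1.91 ± 0.21 log2 units in HL60 (SE, 3.75-fold, limma adjusted p = 1.45e-06), 1.25 ± 0.21 in THP-1 (2.39-fold, adjusted p = 0.000209) and 1.13 ± 0.21 in U937 (2.18-fold, adjusted p = 0.000612), and by 1.47 in U937 without the arrays numbered 2 (adjusted p = 7.5e-05). Of all genes, 2.66% were called higher in all 3 lines, and WIPI1, GABARAPL1 and SQSTM1 were the 3 members among them.

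NBR1, a receptor that acts together with SQSTM1, had 7.79, 7.83 and 7.96 in HL60 with PMA, against 6.88, 6.73 and 6.79 with DMSO. It had 7.66, 7.71 and 7.81 in THP-1 with PMA, against 7.12, 7.34 and 7.08 with DMSO, and 7.27, 6.49 and 7.65 in U937 with PMA, against 6.58, 6.55 and 6.19 with DMSO. Only in U937 did the groups overlap, through the second PMA array. The changes were 1.06 ± 0.22 in HL60 (SE, limma adjusted p = 0.00149), 0.55 ± 0.22 in THP-1 (adjusted p = 0.0907) and 0.69 ± 0.22 in U937 (adjusted p = 0.0312; 1.07 without the arrays numbered 2, 0.000493). The THP-1 change passed the test in 6 of 27 alternatives: after quantile normalization (0.65, adjusted p = 0.00156) or centring (0.63, 0.00246), with only the THP-1 arrays in the fit (0.0243), and without both U937 arrays numbered 2 (0.00705), U937 PMA 2 (0.00638) or U937 PMA 3 (0.0381). The U937 call was lost with only the U937 arrays in the fit (adjusted p = 0.154) and without U937 DMSO 1 (0.0521), DMSO 2 (0.0522), DMSO 3 (0.129), PMA 1 (0.0963) or PMA 3 (0.148), with changes between 0.44 and 0.76.

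OPTN, a receptor for damaged mitochondria and bacteria, had 6.15, 6.27 and 5.85 in THP-1 with PMA, against 5.04, 5.20 and 4.85 with DMSO. In U937 it had 7.71, 6.93 and 7.74 with PMA, against 6.40, 6.25 and 5.55 with DMSO, and in HL60 4.47, 4.60 and 4.98 with PMA, against 4.25, 4.28 and 4.39 with DMSO. The PMA arrays exceeded the DMSO arrays in each line, by least in HL60, where the levels lay below the 30th percentile of probe sets. It rose by 1.06 ± 0.24 log2 units in THP-1 (SE, limma adjusted p = 0.00374) and 1.39 ± 0.24 in U937 (adjusted p = 0.000417; 1.75 without the arrays numbered 2, 0.000274), while the HL60 change was 0.38 ± 0.24 (adjusted p = 0.317). The HL60 effect minus the U937 effect was -1.02 ± 0.34 (adjusted p = 0.0882, with the replicate block 0.0359), and -1.37 without the arrays numbered 2 (0.0176).

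**Figure D3:**
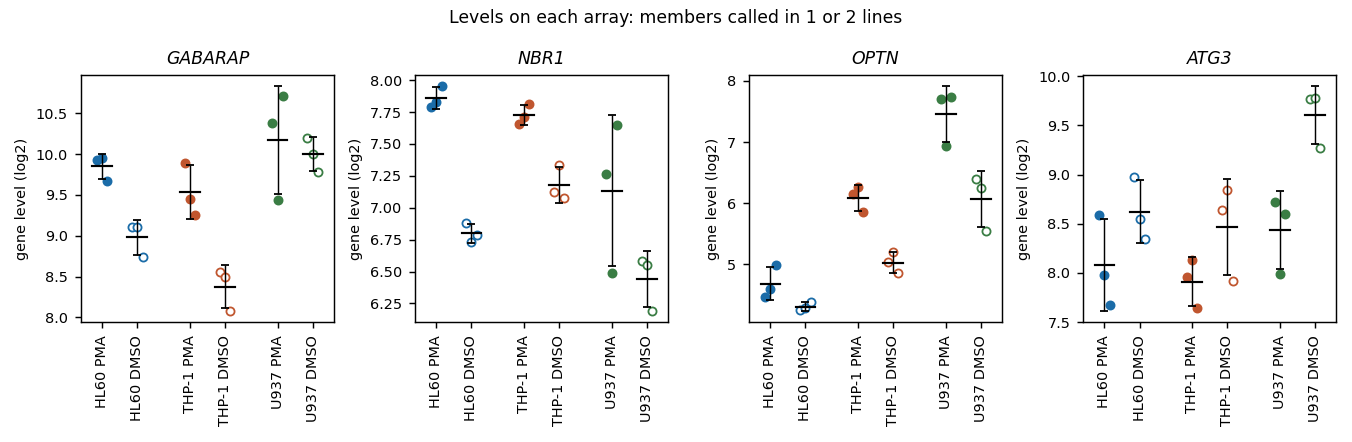
Gene levels (log2) of GABARAP, NBR1, OPTN and ATG3 on each array, with PMA (filled) left of DMSO (open) in each line, and black bars for the mean and SD of 3 arrays. The second U937 PMA array is the lowest PMA point of its line for all 4 genes and lies among or below the U937 DMSO arrays for GABARAP and NBR1.

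Whether PMA moved a member differently in different lines was tested on the difference of the effects. Between HL60 and THP-1, 5 members differed, all with the higher effect in HL60: GABARAPL1 by 1.67 ± 0.37 log2 units (SE, limma adjusted p = 0.00827), ATG4A by 1.59 ± 0.40 (0.0197), RUBCNL by 1.53 ± 0.34 (0.00732), ATG4B by 1.16 ± 0.34 (0.0429) and ATG9A by 1.14 ± 0.30 (0.0237). They are 15.2% of the members, beside 7.78% of all genes (4.88% with a positive difference and 2.90% with a negative one). Between HL60 and U937, 3 members differed, 9.09% beside 7.73% of all genes (5.98% positive, 1.75% negative): ATG9A by 1.76 ± 0.30 (adjusted p = 0.00095), RUBCNL by -1.76 ± 0.34 (0.00245) and GABARAPL1 by 1.37 ± 0.37 (0.0289). The GABARAPL1 difference from U937 was lost without the U937 arrays numbered 2 (0.99, adjusted p = 0.0986), while without them the ATG9A difference was 1.57 (0.000551) and the RUBCNL difference -2.07 (0.000415). With the replicate block 7 members differed between HL60 and U937, with PIK3C3 (1.07, adjusted p = 0.0115), ATG4B (1.01, 0.0145), ATG4C (1.04, 0.044) and OPTN added, and 2 between THP-1 and U937, ATG4A joining RUBCNL (-1.13, adjusted p = 0.157, with the block 0.0209).

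Several of these calls were lost when 1 array was left out, in some cases an array of a line outside the comparison. The differences themselves stayed positive. The ATG9A difference between HL60 and THP-1 was lost in 8 of 27 alternatives (1.07 to 1.16, adjusted p between 0.0511 and 0.0704), each leaving out HL60 DMSO 1 or 2, HL60 PMA 2 or 3, THP-1 DMSO 1 or 2, or THP-1 PMA 1 or 2. The ATG4B difference was lost in 14 (1.02 to 1.24, adjusted p between 0.0501 and 0.122), namely with the intensity trend and without any 1 DMSO array of the 3 lines except THP-1 DMSO 3, HL60 PMA 1 or 2, or any THP-1 PMA array. The ATG4A difference was lost without HL60 DMSO 3, HL60 PMA 1 or THP-1 DMSO 2 (1.36 to 1.44, adjusted p between 0.0583 and 0.062). The GABARAPL1 difference between HL60 and U937 was also lost with dim probe sets left out (0.84, adjusted p = 0.0813) and without any HL60 DMSO array, HL60 PMA 1, or U937 DMSO 1 or 2 (adjusted p between 0.0502 and 0.0837). The RUBCNL differences, the ATG9A difference between HL60 and U937 and the GABARAPL1 difference between HL60 and THP-1 passed the threshold in all alternatives run.

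**Figure D4:**
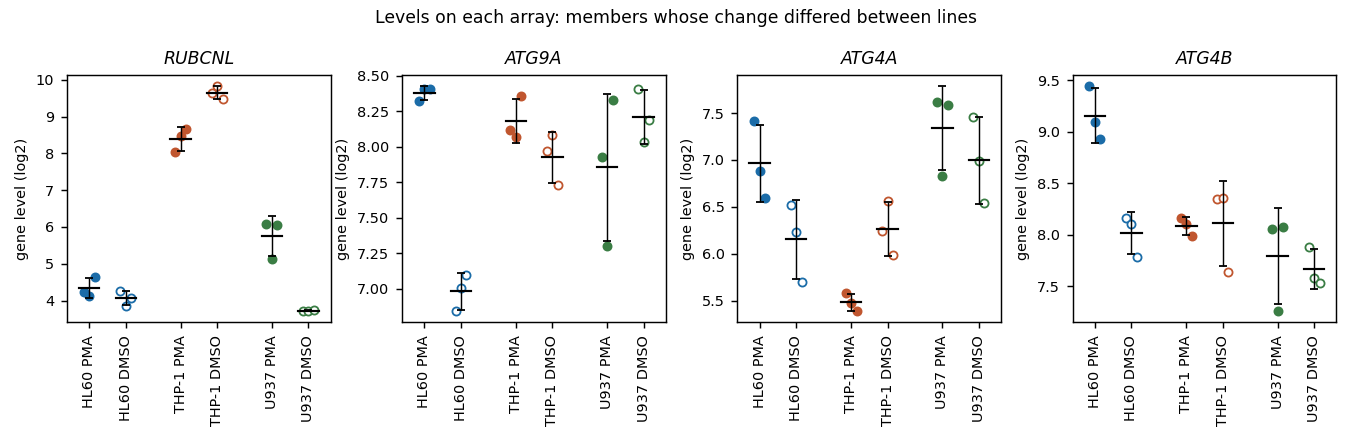
Gene levels (log2) of RUBCNL, ATG9A, ATG4A and ATG4B on each array, with PMA (filled) left of DMSO (open) in each line, and black bars for the mean and SD of 3 arrays. RUBCNL is lower with PMA in THP-1 and higher in U937, ATG9A and ATG4B stand clear of DMSO in HL60, and ATG4A lies above DMSO in HL60 and below it in THP-1.

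The series was made to study exon usage, so each probe set was also compared with the rest of its gene. Of 606 member probe sets tested in 33 genes, 7 departed from their gene by at least 1 log2 unit in HL60 (2.78% of all probe sets did), 3 in THP-1 (1.5%) and 8 in U937 (1.01%), at limma's diffSplice adjusted p under 0.05. The members' shares were 1.16%, 0.495% and 1.32%. Most of the U937 calls lay in RUBCNL, whose probe sets were kept for a mean level that is high in THP-1. The U937 count and share thus include calls that are not read as exon usage. On simulated data with independent noise on each array, diffSplice made more false calls per probe set than a limma fit of the splicing index. That index is the probe-set level minus its gene's level, and its adjusted p is given as well. Same-numbered arrays here deviated together, so the simulated rates need not hold for these data. Both tests called 6, 3 and 5 of these probe sets. The calls lay in ATG13, GABARAPL1, RUBCNL, SQSTM1 and WIPI1. The place of a probe set within its gene was not used here.

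In SQSTM1, probe sets 2844480, 2844485 and 2844499 stayed behind the rest of the gene. Probe set 2844480 read 7.46, 7.80 and 7.16 in HL60 with PMA and 7.50, 6.71 and 7.14 with DMSO, which overlap. It lagged the gene by -1.75 log2 units there (adjusted p = 0.000141, splicing index 0.000339) and by -1.59 in THP-1 (0.00193, splicing index 0.00195). Probe set 2844499, with readings between 10.70 and 12.10 on all arrays, lagged by -2.01 in HL60 (6.16e-06, splicing index 0.003), and 2844485 by -1.68 (0.00033, splicing index 0.00133). In THP-1, 2844485 and 2844499 lagged by -1.17 each without passing the test (0.0637 and 0.0599, with the replicate block 0.00615 and 0.00565). In U937 the 3 probe sets lagged by -0.81, -1.21 and -1.18 without passing it, and with the block 2844485 (0.00447) and 2844499 (0.00638) passed. Probe set 2844541 exceeded the gene by 1.38 in HL60 (0.00671), which the splicing index did not call (0.217).

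WIPI1 held a like case in probe set 3768518, which read 8.45, 8.53 and 8.63 in HL60 with PMA and 8.07, 8.43 and 8.79 with DMSO. In THP-1 it read 8.76, 8.53 and 8.51 with PMA and 8.60, 8.09 and 8.70 with DMSO, so its groups overlapped in both lines although the gene's were apart. It lagged WIPI1 by -1.68 in HL60 (adjusted p = 0.00248, splicing index 0.00344) and by -1.72 in THP-1 (0.00361, splicing index 0.00614), and by -1.30 in U937 (0.0911, with the replicate block 0.0112). Probe set 3768478 lagged by -1.66 in THP-1 (0.00624, splicing index 0.0105).

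GABARAPL1 had 5 of its 8 probe sets bright enough to test. Probe set 3404657 read 10.08, 10.15 and 10.02 in HL60 with PMA, against 6.82, 6.81 and 6.49 with DMSO, and 8.72, 8.35 and 8.73 in U937 with PMA, against 6.23, 6.64 and 5.86 with DMSO. Its rise exceeded that of the 4 other tested probe sets by 1.86 log2 units in HL60 (adjusted p = 0.000639, splicing index 0.000422) and 1.62 in U937 (0.0106, splicing index 0.00434; 1.61 without the arrays numbered 2, 0.0253). The untested dim probe sets 3404656 and 3404658 rose more in HL60, by 5.25 and 3.52 against 3.38, so 3404657 does not stand apart from all probe sets of the gene. Probe set 3404638 lagged by -1.60 in U937 (0.0128, splicing index 0.0773), where its second PMA array read 3.38, and by -0.89 without the arrays numbered 2 (0.839).

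RUBCNL made 5 of the 8 calls in U937, and they are given as readings and not as a measure of exon usage. Its tested probe sets were kept for their mean level over all arrays, which is high in THP-1: in U937 with DMSO, 12 of the 17 tested and 22 of all 27 probe sets averaged below the 30th percentile. Probe set 3512954 read 8.64, 7.29 and 7.86 in U937 with PMA, against 2.56, 3.21 and 1.87 with DMSO, and averaged 11.13 in THP-1 with PMA and 12.03 with DMSO. Probe set 3512972 read 7.57, 6.58 and 6.96 in U937 with PMA, against 2.63, 3.35 and 2.92 with DMSO. These 2 exceeded the rest of the gene in U937 by 3.42 and 2.02 log2 units from a dim start. Probe sets 3512952, 3512958 and 3512961 lagged it by -1.67, -1.93 and -1.98, with brighter DMSO means of 7.21, 6.57 and 4.83. Without the arrays numbered 2, 3512952 (-1.62, adjusted p = 0.153) and 3512958 (-1.84, 0.0518) lost the call. None of the 5 was called in THP-1, where all 27 probe sets were lower with PMA.

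ATG13, whose gene value passed no test, had probe set 3329434 at 5.56, 5.63 and 6.21 in HL60 with PMA, against 6.42, 6.77 and 7.10 with DMSO. It lay apart from its gene by -1.18 (adjusted p = 0.0277, splicing index 0.00934). In U937 probe set 3329415 read 6.44, 6.40 and 7.57 with PMA, against 8.29, 7.91 and 8.15 with DMSO, a departure of -1.43 (0.00745, splicing index 0.0504; -1.66 without the arrays numbered 2, 0.00212). In neither line did the readings with PMA overlap those with DMSO.

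**Figure D5:**
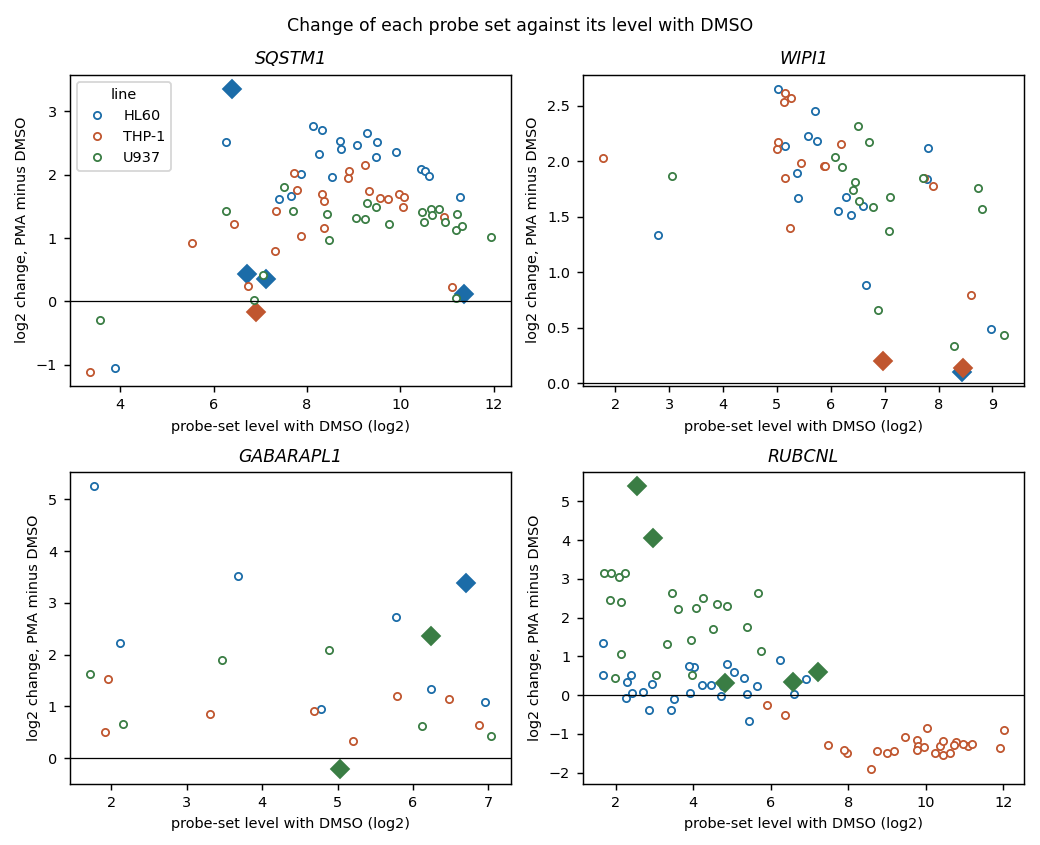
Change of every probe set of SQSTM1, WIPI1, GABARAPL1 and RUBCNL (log2 units, PMA minus DMSO) against its mean level with DMSO, coloured by line. Filled diamonds are probe sets called against the rest of their gene; in SQSTM1 and WIPI1 all but 1 lie near 0, below most points of their line, the untested SQSTM1 probe set 2844483 lies lower still in HL60 and THP-1, and in RUBCNL the U937 diamonds lie at both ends of the U937 range.

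The wider pathway was followed through 63 tested genes outside the 36. In HL60, 15 of them rose and 8 fell (36.5%, beside 23.0% of all genes), in THP-1 9 rose and 2 fell (17.5%, beside 22.5%), and in U937 6 rose and 6 fell (19.0%, beside 22.0%). Without the U937 arrays numbered 2, 9 rose and 4 fell in U937, the genes named below as called in U937 kept their calls, and TFEB passed the test there too (0.68, adjusted p = 0.0308). MITF, a factor of the TFEB family that drives lysosomal genes, the WIPI relative WDR45 and the receptor TOLLIP rose in all 3 lines, and DEPTOR, an inhibitor of MTOR, and BCL2, which binds BECN1, fell in all 3. MITF rose by 1.89, 1.25 and 1.49 log2 units in HL60, THP-1 and U937, and WDR45 by 1.24, 1.21 and 0.81. In the same order the DEPTOR changes were -2.12, -1.75 and -1.99, and those of BCL2 -2.54, -0.82 and -1.16.

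Of the 6 transcription factors, TFEB rose by 1.63 ± 0.21 in HL60 (SE, limma adjusted p = 1.44e-05) and 0.61 ± 0.21 in THP-1 (adjusted p = 0.048), and its relative TFE3 rose by 1.09 in THP-1 and 0.93 in U937. The TFEB effect was higher in HL60 than in THP-1 by 1.02 ± 0.30 (adjusted p = 0.0473) and than in U937 by 1.18 ± 0.30 (0.0206). FOXO1 rose in HL60 by 0.98. Of the 15 other receptors, the reticulophagy receptor RETREG1 rose by 2.35 ± 0.25 in HL60 and fell by 1.02 ± 0.25 in U937, a difference of 3.37 ± 0.35 (adjusted p = 6.65e-06). TEX264, a receptor for the same organelle, rose by 1.31 in HL60 and 1.15 in THP-1, and the mitophagy receptor BNIP3 fell by 1.38 in HL60 while BNIP3L rose by 1.13. Among inducers, TP53INP1 rose by 2.32 ± 0.29 in THP-1. Of the 12 genes for fusion with lysosomes, 1 was called in HL60 (SNAP29, 1.03) and 1 in U937 (STX17, -1.16), and none in THP-1.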

How the data were processed

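The deposited values are log2 levels of 287329 core probe sets on 18 arrays, made by the authors with Affymetrix Expression Console, per the submitters' processing notes; the summary method is not given in the sources used here. They ran from 0.58 to 14.4. Probe sets with a single gene symbol (261273) were averaged to 16267 genes with at least 3 probe sets, older symbols updated through RefSeq. A fit of 6 group means in limma 3.58.1 (R 4.3.3) gave PMA against DMSO in each line and the differences of those effects, with 12 residual degrees of freedom, and Benjamini-Hochberg adjustment over all genes (called at adjusted p under 0.05). Exon usage was tested with diffSplice on 175116 probe sets of 11976 genes (mean level above the 30th percentile, at least 5 such probe sets a gene; called also at a difference of at least 1 log2 unit). These steps were tested on simulated data with independent noise on each array. Same-numbered arrays deviated together in every line (correlations 0.28 to 0.79), a pairing read from the data and not from a statement in the labels. The main fit did not pair the samples, and the replicate number entered as a block only in an alternative fit. Alternatives were quantile normalization, median centring, median polish, other probe-set filters, an intensity trend, the block, and arrays left out. With 18 arrays, the standard error of a PMA effect had a median of 0.23, that of a difference between lines 0.32. All members may be named; values on every array are given for members called with a change of at least 1 log2 unit, called in all 3 lines, or differing between lines, with MAP1LC3B and the probe sets added after values were seen. The members, lists and comparisons were chosen with earlier results of these data known. Promoter windows come from RefSeq (GRCh38.p14).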

Additional observations from a re-analysis of the deposited data

Results flagged for a closer look

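The PMA effect differed between lines, by a test of the difference itself, for 5 members. The HL60 effect exceeded the THP-1 effect for GABARAPL1 by 1.67 log2 units, ATG4A by 1.59, RUBCNL by 1.53, ATG4B by 1.16 and ATG9A by 1.14. Against U937, the HL60 effect was higher for ATG9A by 1.76 and GABARAPL1 by 1.37, and for RUBCNL the difference was -1.76. The THP-1 effect minus the U937 effect was -3.29 for RUBCNL, which fell in THP-1 and rose in U937. No test for single far arrays applied, since every group holds 3 arrays.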

How the results depend on the processing

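No call changed direction under any of the alternatives run. The number of members with PMA against DMSO in HL60 called was 9, and 14 with the replicate block (all genes, 23.0% and 34.3%). For PMA against DMSO in THP-1 it was 7, and 11 without both U937 arrays numbered 2. Quantile normalization gave 15, centring arrays on their medians 13 and the replicate block 16. The shares of all genes called there were, in that order, 22.5%, 30.6%, 32.2%, 32.4% and 34.7%. For PMA against DMSO in U937 the number of members was 9, and 15 with centred arrays (all genes, 22.0% and 28.7%). The count for the PMA effect in HL60 minus U937 was 3. It was 8 after quantile normalization, 7 with centred arrays and 7 with the replicate block. For the PMA effect in THP-1 minus U937 the count was 1, with 3, 2 and 2 under the same settings. Of all genes, 7.73%, 11.4%, 10.6% and 16.4% were called for the former, and 4.76%, 8.57%, 8.18% and 10.1% for the latter. Leaving out 1 array at a time gave 7 to 11 members in HL60, 6 to 11 in THP-1, 8 to 12 in U937, 2 to 5 for the PMA effect in HL60 minus THP-1 (5 with all arrays), 2 to 5 for HL60 minus U937 and 1 to 2 for THP-1 minus U937. The counts of 11, 11 and 12 came without the second U937 PMA array. The shares of all genes called with 1 array left out are not given here, so these counts are not read as results about the members. Of all genes, 30.4%, 30.6% and 18.3% were called in HL60, THP-1 and U937 without both U937 arrays numbered 2. The member probe sets called for exon usage, PMA against DMSO in HL60, numbered 7, with 11 after quantile normalization, 16 with the replicate block and 11 without both U937 arrays numbered 2. For THP-1 they numbered 3, with 6, 7 and 5 under those settings and 5 by the splicing index. For U937 they numbered 8, most of them in RUBCNL. The U937 number was 14 with the replicate block, 5 without that pair and 4 with probe sets above the 50th percentile. Arrays left out 1 at a time gave 5 to 11, 2 to 9 and 5 to 9 probe sets. The shares of all probe sets called under these settings are not given here. These counts are therefore not read as results about the members. Of 34 member calls, 9 were lost under at least 1 alternative (62 of 918 pairs of a call and an alternative), and of 18 probe-set calls, 10 were (33 of 426 pairs). The replicate block ended no call of a member. The causes of these changes were not tested.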
